A study of Mus musculus with 16 samples.

Results

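The nuclear genes of oxidative phosphorylation were followed through the cell types of the mouse transverse colon in acute dextran sulfate sodium (DSS) colitis. They were taken by name, as every gene of the deposited matrix whose symbol starts with Nduf, Uqcr, Cox4, Cox5, Cox6, Cox7, Cox8 or Atp5, together with Sdha, Sdhb, Sdhc, Sdhd and Cyc1. This gave 91 of 16039 genes: 36 subunits and 8 assembly factors of complex I, 4 subunits of complex II, 9 of complex III, 18 of complex IV and 16 of the ATP synthase. Ndufa4 and its paralog Ndufa4l2 were counted with complex IV, where the Ndufa4 protein is now placed. The 13 protein-coding genes of the mitochondrial genome, whose symbols start with mt-, were read beside them.

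The respiratory chain passes electrons from NADH (complex I) and succinate (complex II) through complex III and cytochrome c to complex IV, which reduces oxygen, and the ATP synthase uses the proton gradient that results. All complexes except complex II join subunits encoded in the nucleus and in the mitochondrion, so the gene sets of both genomes serve the same enzymes. Several complex IV subunits and the ATP synthase c subunit come in isoforms encoded by separate genes, some of them known from heart and skeletal muscle. In the colon, absorptive cells near the lumen oxidise butyrate in their mitochondria, while cells at the crypt base have been described as relying more on glycolysis.

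Single cells of the transverse colon were measured in 16 female C57Bl/6J mice, 7 weeks old when they were housed for the study, and every mouse was 1 replicate. Uninjured mice (2 at each of the 24 h and 48 h collections) carry no DSS and no antibody dose in the labels. Anti-GFP mice drank 4% DSS until collection and received 10 mg/kg of a control antibody on day 4 (3 mice at 24 h, which is day 5, and 3 at 48 h, which is day 6), and SZN-1326-p mice (3 and 3) received the same DSS with 10 mg/kg of SZN-1326-p, an activator of Wnt signalling through particular Frizzled receptors as the title of the series names its subject. On this reading the anti-GFP mice differ from the uninjured mice by DSS and by an antibody together, and this contrast is called DSS below. The DSS and SZN-1326-p comparisons share the anti-GFP mice.

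The matrix held 22717 cells in the 46 cell types of the authors' annotation, of which 10373 were epithelial. Libraries held 9616512 to 21335421 UMIs (unique molecular identifiers, which count captured transcripts). Every marker of a class was detected in that class in each arm, with the lowest sums in T lymphoid cells (1.82 to 32.0 per mouse for 5 markers). The summed level of 5 epithelial markers in epithelial cells had a median of 157 normalized UMIs per cell in uninjured mice and 93.1 in anti-GFP mice. In epithelial cells the 4 libraries uninjured 1, anti-GFP 1, anti-GFP 2 and SZN-1326-p 1 of the 24 h collection had the lowest levels of short against long transcripts. With the genes of interest left out, they lay at -0.63 to -0.23 on the log2 scale. The other 12 lay at -0.19 to 0.37, without a clear gap. Anti-GFP 3 of 48 h, at -0.19 in epithelial cells, was at -0.75 in T lymphoid and -1.13 in B or plasma cells. The level of short transcripts touches every result below, because the 91 genes are short: their median transcript has 751 bases, against 2581 over all genes. Levels are given as normalized UMIs per cell (UMIs divided by the size factor of the cell, averaged over the cells of a mouse), and differences are on the log2 scale of this level plus 0.01. Counts come from transcript 3′ ends and are not compared between genes.

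Promoter sequence is shown for 3 members on which the results turn: Cox7a1 and Atp5g1, which were lower in colitis, and Ndufaf4, the member that was higher under SZN-1326-p. The 250 bases before the RefSeq start are printed 5′ to 3′ on the strand of the gene, build GRCm38.p6. Capitals mark a match to the core motif of NRF1, a factor known for respiratory chain promoters (the capitals of the Ndufaf4 line are its letters), or to the E-box CACGTG, which Myc and related factors bind.
Ndufaf4, chr4:24897833-24898082, plus strand: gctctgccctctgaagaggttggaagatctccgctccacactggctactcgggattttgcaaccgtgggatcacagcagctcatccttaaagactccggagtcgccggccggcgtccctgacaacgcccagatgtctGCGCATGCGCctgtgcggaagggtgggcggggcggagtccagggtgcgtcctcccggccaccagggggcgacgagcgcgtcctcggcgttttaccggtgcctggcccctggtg
Atp5g1, chr11:96075632-96075881, minus strand: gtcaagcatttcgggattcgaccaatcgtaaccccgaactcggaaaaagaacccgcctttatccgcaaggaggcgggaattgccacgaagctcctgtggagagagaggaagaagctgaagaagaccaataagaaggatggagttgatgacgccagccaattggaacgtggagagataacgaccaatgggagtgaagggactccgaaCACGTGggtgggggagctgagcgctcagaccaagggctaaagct
Cox7a1, chr7:30183921-30184170, plus strand: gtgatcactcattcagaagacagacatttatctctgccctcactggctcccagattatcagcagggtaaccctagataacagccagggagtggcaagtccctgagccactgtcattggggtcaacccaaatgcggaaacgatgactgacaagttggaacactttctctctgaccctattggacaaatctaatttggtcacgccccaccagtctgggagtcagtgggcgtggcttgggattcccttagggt
The Ndufaf4 stretch holds the NRF1 motif starting 113 bases before the gene's start, and the Atp5g1 stretch holds the E-box starting 44 bases before it. None of the 4 motifs searched was found in the Cox7a1 stretch. Over both strands and windows from 250 bases before to 50 after the start, the NRF1 motif occurred in 7 of the 73 members with a RefSeq promoter (9.59%, against 1.07% of 27025 genes). These were Atp5g2, Atp5k, Cox6a1, Ndufa11, Ndufaf4, Ndufaf5 and Uqcrc1. The YY1 motif AAGATGGC occurred in 10 members (13.7%, against 3.19% of genes), the ETS motif CCGGAAGT in 5 (6.85%, against 4.31%) and the E-box in 5 (6.85%, against 8.09%). These are letter matches and describe no binding.

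The genes were most abundant in absorptive cells on the way to maturity. Levels were compared across the 35 cell types with at least 20 cells in at least 2 mice. Of the 91 genes 72 had their highest mean level in 1 of 2 types named immature enterocytes, ImmEntero1 (37 genes) and ImmEntero2 (35 genes). The share of all genes that peak in these 2 types was not counted. As a share of all UMIs outside the mt- genes, the 91 genes made up 6.83% ± 0.67 (SD, n = 4 mice) in ImmEntero1 and 5.89% ± 0.62 (n = 4) in ImmEntero2. The next types were the enterocyte precursors at 5.50% ± 0.67 (n = 6), the AltEnteroPC cells at 5.18% ± 0.95 (n = 15) and the stem cells at 4.69% ± 0.43 (n = 11), whose ranges of 1 SD overlap. Cells named mature enterocytes lay lower, at 3.09% ± 0.26 (n = 4). All mice behind ImmEntero1, ImmEntero2 and enterocytes were uninjured, while the other epithelial types named here join mice of several arms. In uninjured mice alone AltEnteroPC cells reached 6.02% ± 1.04 (n = 3) and enterocyte precursors 6.02% ± 0.37 (n = 3). Both overlap with the 2 immature types within 1 SD. Uninjured stem cells were at 5.10% ± 0.44 (n = 4). Outside the epithelium, the interstitial cells of Cajal reached 3.03% ± 0.19 (n = 3) and myofibroblasts 2.31% ± 0.36 (n = 15), while crypt fibroblasts (CryptFB1, 1.91% ± 0.29, n = 16), vascular endothelium (1.65% ± 0.29, n = 16) and macrophages (1.51% ± 0.16, n = 16) had ranges of 1 SD that overlap. Activated neutrophils were lowest, at 0.885% ± 0.27 (n = 12). These levels are described and not tested, since the types were drawn from the same genes.

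The mitochondrial transcripts did not follow the same order. They made up 33.8% ± 2.84 of all UMIs in ImmEntero1 and 22.5% ± 1.43 in ImmEntero2, which lay next to each other for the nuclear genes, and 40.0% in the transit-amplifying TA1 cells, where the nuclear share was 3.24% ± 0.30 (n = 7). IgA plasma cells had 3.60% mt- UMIs and neutrophils 1.18%.

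The isoforms of complex IV divided by cell type. Cox4i1, the common form of the largest nuclear subunit, was highest in ImmEntero1 at 52.6 ± 6.3 normalized UMIs per cell (n = 4). Its paralog Cox4i2, known from lung and from oxygen-sensing cells, stood at 2.27 ± 1.27 in interstitial cells of Cajal (n = 3), at 0.208 ± 0.14 in CryptFB2 fibroblasts (n = 10), and at 0.0035 or less in the epithelial cells of every mouse. Cox6b2, a form known from testis, was highest in interstitial cells of Cajal (0.729 ± 0.118) and CryptFB1 fibroblasts (0.571 ± 0.261, n = 16), whereas its common paralog Cox6b1 was highest in ImmEntero2 (18.2 ± 3.3). Cox7a1, the heart and muscle form of subunit 7a, followed the absorptive cells: 2.68 ± 0.58 in ImmEntero2, 1.38 ± 0.30 in ImmEntero1 and 1.18 ± 0.30 in enterocytes (n = 4 each), then 0.61 ± 0.34 in AltEnterocyte cells (n = 10). The common form Cox7a2 was highest in the same ImmEntero2 cells (18.7 ± 3.4). Cox7a2l, which encodes a supercomplex factor related to subunit 7a, was highest in CD8 T and NK cells (4.53 ± 1.1, n = 9) and dendritic cells (4.07 ± 0.83, n = 11), with ranges that overlap.

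Ndufa4 had a different peak from the rest: 18.1 ± 2.40 in IgA plasma cells (n = 4), against 8.61 ± 0.64 in the next type, the Goblet2 cells (n = 4). Of the muscle forms, Cox6a2 was found in 27 cells (133 UMIs), mainly dendritic cells (0.281 ± 0.43, n = 11), and Cox8b in 143 cells (326 UMIs). Ndufa4l2, a hypoxia-regulated paralog, was highest in BaseCryptFB2 fibroblasts (0.119 ± 0.080, n = 16). The complex I assembly factor Ndufaf4 was highest in TA1 cells (0.595), with 0.531 in interstitial cells of Cajal.

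**Figure D1:**
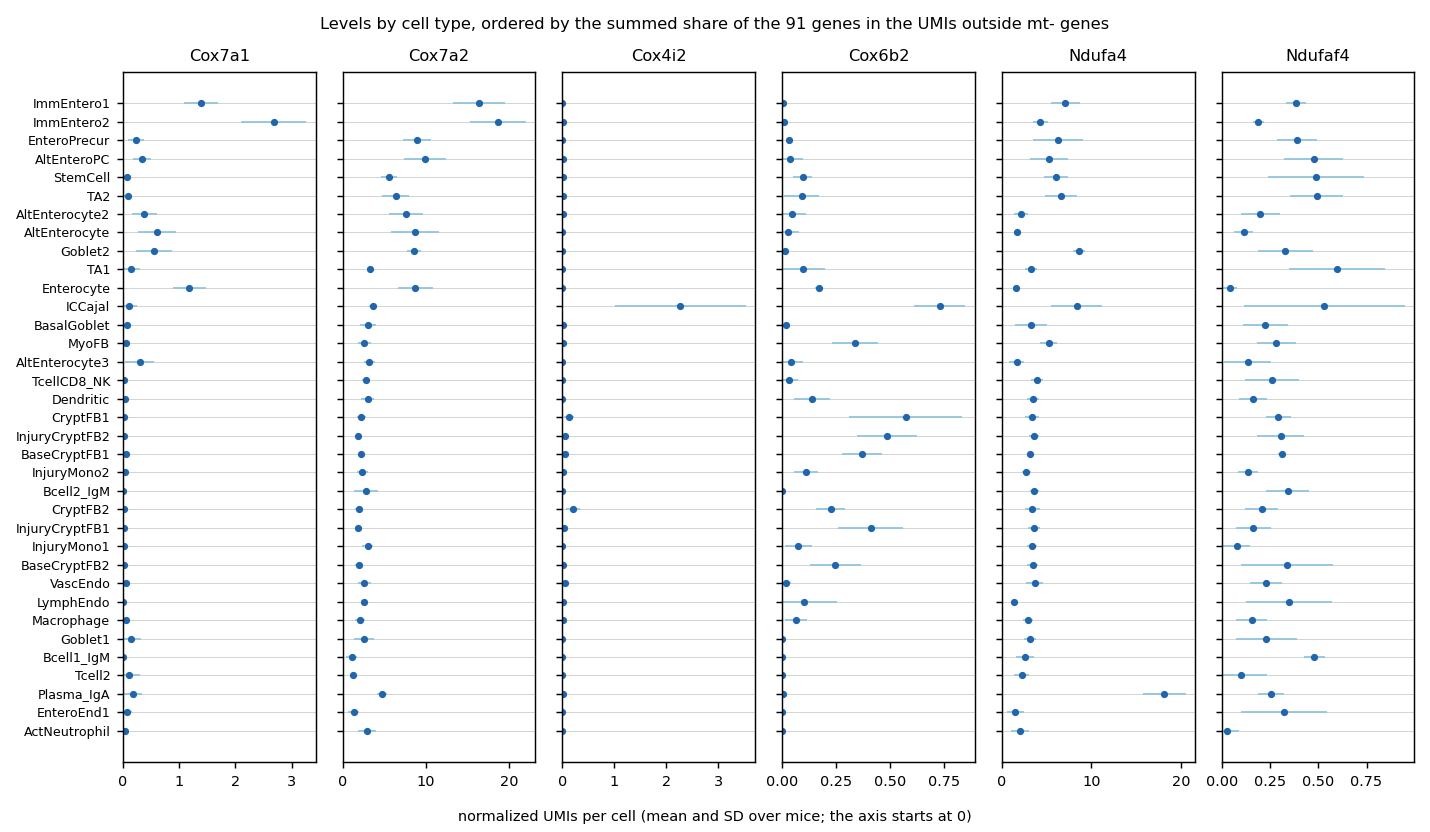
Mean level in normalized UMIs per cell (points) and SD over mice (bars) of 6 members in 35 cell types, ordered from top to bottom by the summed share of the 91 genes. Cox7a1 and Cox7a2 peak in ImmEntero2, Cox4i2 and Cox6b2 in interstitial cells of Cajal (ICCajal), Ndufa4 in IgA plasma cells and Ndufaf4 in TA1 cells.

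In epithelial cells members of each of the 5 complexes fell in DSS colitis, 1 of them in complex II. Of 87 members tested, 48 fell and none rose in anti-GFP against uninjured mice (limma, Benjamini-Hochberg adjusted over 10795 genes), where 12.5% of all genes fell and 10.8% rose. All 87 differences were below 0, with a median of -0.59 and a range of -2.09 to -0.17, while the median of all genes was 0.005. The count was 24 when values were scaled to the UMIs outside the mt- genes (members' median -0.38, all genes 0.20) and 7 with voom (-0.33 and 0.26). The 4 members not tested, Cox4i2, Cox6a2, Cox8b and Ndufa4l2, lay under the filter on low values in epithelial cells. None of the 13 mt- genes passed the test (none also at an unadjusted p under 0.05), and their median was -0.11.

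Cox7a1 showed the largest difference. Uninjured mice had 0.695 and 1.37 at 24 h and 0.940 and 0.882 at 48 h, and anti-GFP mice had 0.127, 0.135 and 0.283 at 24 h and 0.468, 0.275 and 0.150 at 48 h. Every anti-GFP mouse lay below every uninjured mouse. The level fell by 2.09 on the log2 scale (SE 0.29, adjusted p = 0.000164, limma), lower in 6 of 6 mice, and stayed past the threshold in all 32 alternative settings tried (highest adjusted p = 0.0480). The common form Cox7a2 fell by 0.69 (adjusted p = 0.0450, limma) but lost this call in 20 of the 32 settings, and Cox7a2l differed by -0.59 (adjusted p = 0.0642).

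In complex IV, 10 of 14 tested members fell, with a median of -0.71. Cox6b2 fell by 0.98, from 0.0725 ± 0.015 to 0.0345 ± 0.020, a level that few UMIs support, and lost the call in 15 of 32 settings. Cox6b1, which helps to hold the complex IV dimer together, fell by 0.83 and the subunits Cox4i1, Cox5a and Cox8a by 0.73, 0.74 and 0.74; the calls were lost in 7, 6 and 13 of 32 settings. For Cox4i1 the uninjured mice had 21.5, 36.2, 29.9 and 31.4, and the anti-GFP mice 13.9 to 22.3 with a median of 18.1. The groups overlap in the first uninjured mouse, 1 of the 4 libraries low in short transcripts. Cox6a1 (-0.42, adjusted p = 0.123) and Ndufa4 (-0.47, adjusted p = 0.221) did not pass limma's test.

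In complex I, 21 of 36 subunits fell, with a median of -0.58. The largest change was in Ndufa1, an accessory subunit needed to build the membrane arm, at -0.89 (SE 0.25, adjusted p = 0.0179, limma), from 4.59 ± 1.29 to 2.59 ± 1.06. The core subunit Ndufs1, which carries iron-sulfur clusters, changed little in size (1.03 ± 0.04 to 0.859 ± 0.048), yet no anti-GFP mouse reached an uninjured one; its difference of -0.26 had an adjusted p of 0.0920. Of the 8 assembly factors, 1 fell: Ndufaf2, by 0.70 (adjusted p = 0.0313), named here after its value was seen. Ndufaf4 was at 0.320 ± 0.041 and 0.282 ± 0.090 (log2 -0.22, adjusted p = 0.325).

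In complex II, which holds no mitochondrially encoded subunit, Sdhb, the iron-sulfur subunit, fell by 0.74 (SE 0.19, adjusted p = 0.0109, limma), from 2.42 ± 0.35 to 1.48 ± 0.37. The flavoprotein Sdha (-0.20, adjusted p = 0.257) and the membrane anchors Sdhc (-0.37) and Sdhd (-0.35) did not pass the test. Sdha moved to between 0.0059 and 0.06 with voom, with values scaled to the UMIs outside the mt- genes, or with equal weights of the cell types, so its direction depended on these settings. In complex III, 6 of 9 fell, with a median of -0.62. Uqcrb, which binds near the quinone site, was at 6.71, 12.5, 9.96 and 8.99 in uninjured mice and at 3.50, 3.87, 6.05, 7.97, 5.44 and 4.96 in anti-GFP mice, with the groups overlapping through the first uninjured mouse. It fell by 0.87 (SE 0.23, adjusted p = 0.0133). The core protein Uqcrc1 did not pass (-0.40, adjusted p = 0.102).

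In the ATP synthase, 9 of 16 fell, with a median of -0.64. The 3 genes for the same c subunit of the rotor gave different results. Atp5g1 was at 5.56, 7.44, 6.92 and 7.30 in uninjured mice and at 3.08, 2.62, 5.03, 5.11, 5.17 and 3.90 in anti-GFP mice, with no overlap, and fell by 0.75 (SE 0.20, adjusted p = 0.0139, limma). Atp5g2 differed by -0.53 (adjusted p = 0.0698) and Atp5g3 by -0.34 (adjusted p = 0.154); whether the 3 differ from each other was not tested. The catalytic subunit Atp5b fell by 0.59 (adjusted p = 0.0290), also with no overlap, and lost the call in 12 of 32 settings. The membrane subunit Atp5j2 fell by 0.83. In all, 7 members had groups that did not overlap. Beside Cox7a1, Ndufs1, Atp5g1 and Atp5b these were Ndufb9, Ndufb10 and Ndufv1, named after their values were seen. The share of all genes without overlap was not counted, so the number 7 is a description only.

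**Figure D2:**
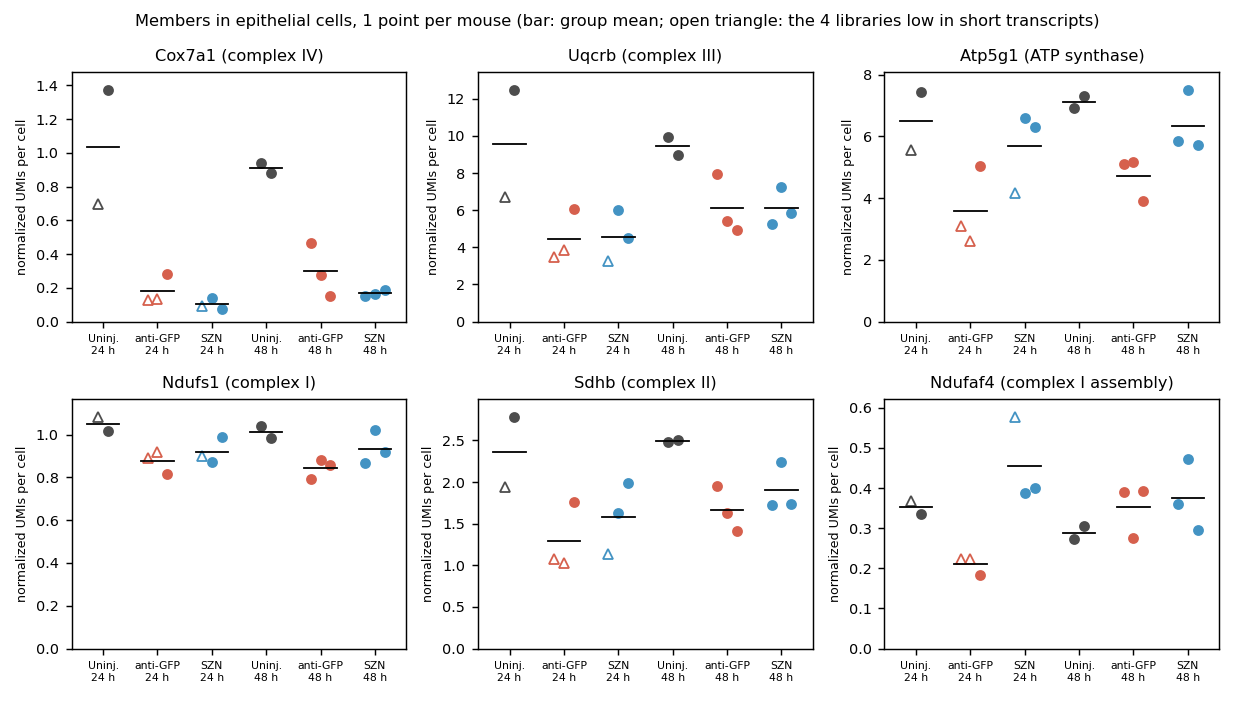
Level in epithelial cells in normalized UMIs per cell of 1 member of each complex and of Ndufaf4, with 1 point per mouse and bars at the group means; open triangles are the 4 libraries low in short transcripts. The anti-GFP mice lie below all uninjured mice for Cox7a1, Atp5g1 and Ndufs1, and the SZN-1326-p mice at 24 h lie above the anti-GFP mice for Ndufaf4.

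The count depended on single mice and on the time. It was 1 without uninjured 2 at 24 h, 5 without uninjured 1 at 48 h, 21 without uninjured 2 at 48 h, 26 and 27 without anti-GFP 1 or anti-GFP 2 at 24 h, and 25 without anti-GFP 3 at 48 h; the median kept its sign, between -0.78 and -0.41, in all of these leave-outs. At 24 h alone 15 members fell (67 at an unadjusted p under 0.05, median -0.76, with 5.2% of all genes lower), and at 48 h alone 1 fell, Cox7a1 (12 at an unadjusted p under 0.05, median -0.43, with 2.84% of genes lower). Without the 4 libraries low in short transcripts 50 members fell, with a median of -0.53. The level of short against long transcripts also differed by arm in the libraries that remained. In epithelial cells it was 0.37, 0.25 and 0.22 in uninjured mice and 0.07, 0.03, 0.003 and -0.19 in anti-GFP mice. Leaving out the 4 libraries thus did not remove this difference between the arms.

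As a share of all UMIs of epithelial cells, the 91 genes summed to 3.55% ± 0.55 in uninjured mice (n = 4, 2.75% to 4.02%), 2.81% ± 0.60 in anti-GFP mice (n = 6, 2.01% to 3.59%) and 3.07% ± 0.58 in SZN-1326-p mice (n = 6, 2.21% to 3.95%). The arms overlap. The 13 mt- genes summed to 29.3% ± 1.49, 28.2% ± 3.29 and 29.6% ± 2.07. In fibroblasts the nuclear share was 1.79% ± 0.16, 1.72% ± 0.28 and 1.86% ± 0.23.

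**Figure D3:**
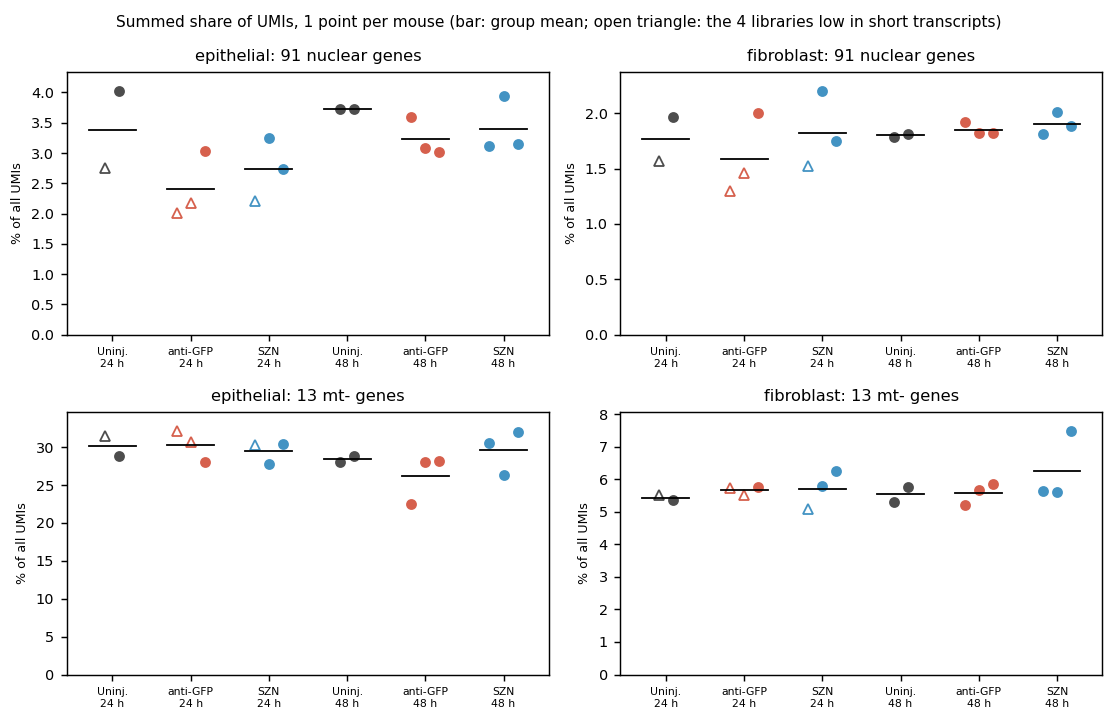
Summed share of all UMIs, in percent, of the 91 nuclear genes (top) and the 13 mt- genes (bottom) in epithelial cells and fibroblasts, 1 point per mouse, bars at group means, open triangles for the 4 libraries low in short transcripts. In epithelial cells the nuclear share averages 3.55% in uninjured and 2.81% in anti-GFP mice with overlapping ranges, while the mt- shares lie near 29%.

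The epithelium changed in composition at the same time. ImmEntero1 cells went from 9.22% ± 3.61 of epithelial cells in uninjured mice to 0.0807% ± 0.20 in anti-GFP mice, ImmEntero2 cells from 17.4% ± 3.96 to 0.219% ± 0.33, and enterocytes from 19.6% to 0.124%. AltEnteroPC cells made up 19.5% ± 4.12 (2.68% ± 2.08 in uninjured mice) and AltEnterocyte cells 11.7% ± 6.11 (none seen in uninjured mice). ImmEntero1, ImmEntero2 and enterocytes together held the highest levels of 74 of the 91 genes. In sums over a class, fewer cells of a type and less RNA per cell cannot be told apart. When 5 types found in both arms (AltEnteroPC, AltEnterocyte2, BasalGoblet, StemCell and TA2) were given equal weights, with AltEnterocyte2 present only in anti-GFP mice of 24 h and uninjured mice of 48 h, 15 members fell in place of 48, with a median of -0.45. Markers of other cells also moved in epithelial cells: the summed level of 8 myeloid markers ranged from 0.277 to 0.378 in uninjured and from 0.441 to 35.7 in anti-GFP mice, and that of 6 B or plasma cell markers from 0.553 to 2.95 and from 0.0476 to 0.399, with only S100a9 of both lists at 0 in uninjured mice. Their part in the result was not tested.

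Within single types fewer members passed. AltEnteroPC cells had 4 lower and 1 higher member of 87 (median -0.25), where 3.93% of genes were lower and 14.8% higher. Those that fell were Cox6b2 (-2.95), Ndufaf2 (-0.98), Ndufaf4 (-0.85, from 0.585 ± 0.074 in 3 mice to 0.344 ± 0.11 in 6) and Ndufv1 (-0.79). Atp5s, a coupling factor of the ATP synthase, was higher by 1.53 at a level below 0.1. Cox6b2 rested on 2, 1 and 5 UMIs in the uninjured mice and on 0 to 2 in each anti-GFP mouse. For Ndufaf4, anti-GFP mice had 0.214 to 0.291 at 24 h and 0.388 to 0.465 at 48 h. Of the 3 anti-GFP mice of 24 h, 2 are libraries low in short transcripts. The uninjured value of 48 h came from 1 mouse with 22 cells. In stem cells Ndufaf4 fell by 1.86 (SE 0.36, adjusted p = 0.00538, limma; 1.55% of genes lower). Uninjured stem cells had 0.966, 0.743, 0.604 and 0.641, while the 2 anti-GFP mice with at least 20 stem cells had 0.190 and 0.194, from 10 and 6 UMIs. In TA2 cells Atp5g1 fell by 0.58 and the ATP synthase subunit Atp5d by 0.52 (median over members -0.29, with 1.99% of genes lower). In AltEnteroPC, stem and TA2 cells the count of lower members was near the share of all genes. In BasalGoblet cells no member passed limma's test, with 16 at an unadjusted p under 0.05 and a median of -0.49. AltEnterocyte2 cells could be compared only between anti-GFP mice of 24 h, where 2 of the 3 are libraries low in short transcripts, and 2 uninjured mice of 48 h, so that DSS, time and library cannot be told apart there. No member passed in that comparison (35 at an unadjusted p under 0.05, median -0.60). Cox7a1 passed in no single type. Its difference was -0.50 in TA2 cells and -0.37 in AltEnteroPC cells (0.439 against 0.369), and -1.39 in the AltEnterocyte2 comparison across times (adjusted p = 0.482, limma). BasalGoblet cells gave -1.41 for Cox7a1, the lowest value of the members tested there. It rested on 9 to 16 UMIs in each uninjured mouse and on 1 to 6 in each anti-GFP mouse.

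In fibroblasts 4 of 90 members fell and 1 rose (median -0.16), against 9.79% of genes lower and 12.4% higher. Cox7a2l fell by 0.77 (SE 0.18, adjusted p = 0.00488, limma) and did so past the threshold in all 23 settings tried. Its level was 2.10, 3.29, 3.26 and 3.30 in uninjured mice and 1.25, 1.11, 2.08, 2.40, 1.61 and 2.31 in anti-GFP mice, with the groups overlapping through the first uninjured mouse. Atp5c1, the rotor shaft of the ATP synthase, fell by 0.46, Ndufb10 by 0.40 and the Rieske protein gene Uqcrfs1 by 0.39; these 3 lost the call in 12, 8 and 13 of 23 settings.

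The difference between the 2 classes was tested within mice. The DSS effect was lower in epithelial cells than in fibroblasts for 47 of 87 members and higher for none (limma on the per-mouse difference; 10.6% of 9341 genes lower and 6.18% higher; median of members -0.44). Of the 13 mt- genes 1 was lower, with 10 at an unadjusted p under 0.05 and a median of -0.35. Complex I gave 23 of 36 and the ATP synthase 9 of 16. For Cox7a1 the effects differed by -1.25 (SE 0.41, adjusted p = 0.0480). For Cox7a2l the difference was 0.18 (SE 0.13, adjusted p = 0.386), so the effects in the 2 classes are not shown to differ.

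**Figure D4:**
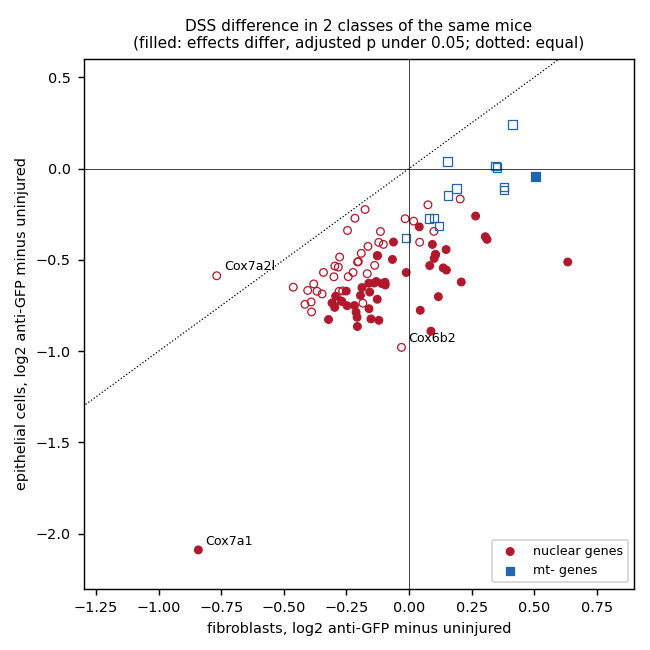
Log2 difference of anti-GFP against uninjured mice in fibroblasts (horizontal) and epithelial cells (vertical), 1 point per gene, filled where the difference between the classes had an adjusted p under 0.05; the dotted line marks equal differences. Most nuclear genes lie below the line, Cox7a1 lies lowest, and Cox7a2l lies near the line.

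Stromal and immune types were also tested singly. In CryptFB1 fibroblasts 5 members fell and 1 rose (5.83% of genes lower, 9.16% higher), a count of lower members near the share of all genes. Those that fell were Cox7a2l (-0.73), Ndufa6 (-0.71), Sdhb (-0.67), Atp5c1 (-0.67) and Cox4i1 (-0.56). In myofibroblasts 7 fell and none rose (2.88% lower, 4.86% higher): Cox8a (-0.89), Cox7a2l (-0.84), Cox7a2 (-0.83), Atp5c1 (-0.82), Ndufa5 (-0.75), Atp5b (-0.68) and Cox4i1 (-0.63). In vascular endothelium Cox7a2l fell by 0.81 (0.575% of genes lower). In BaseCryptFB2 fibroblasts and CD8 T and NK cells no member passed limma's test, with 13 and 4 at an unadjusted p under 0.05; the anti-GFP mice with enough CD8 T and NK cells were all of 48 h. C57Bl/6J mice are known to carry a shortened form of the Cox7a2l protein; the counts do not tell forms apart.

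In endothelial cells as a class 3 of 89 members fell (1.07% of genes lower, 2.19% higher): Cox7a1 by 2.78, Ndufs7 by 0.91 and Cox7a2l by 0.80. The endothelial Cox7a1 level was low (0.120 ± 0.064 to 0.0104 ± 0.014), and the summed level of 5 epithelial markers in endothelial cells went from a median of 5.85 to 2.39 in the same mice; its part in the result was not tested. In T lymphoid cells (3 uninjured mice) 4 of 87 fell, all by more than 1.2 (0.586% of genes lower, 1.24% higher). These were Atp5o, Ndufb9, Atp5g1 and Atp5j2, each of which lost the call in 11 or more settings. In the same class Tcell2 cells went from 39.4% ± 20.3 to 55.0% ± 15.3 of cells, with overlapping ranges of 1 SD. Over all arms the nuclear genes made up 0.947% ± 0.213 of all UMIs in Tcell2 cells (n = 7). In CD8 T and NK cells they made up 1.99% ± 0.165 (n = 9). The part of this composition in the T lymphoid result was not tested. The difference of effects between epithelial and endothelial cells and between epithelial and T lymphoid cells passed for no member (limma; 4 and 2 at an unadjusted p under 0.05). In none of these 3 classes did an mt- gene fall; 2 rose in fibroblasts, 2 in endothelium and 1 in T lymphoid cells, among them mt-Nd5 in fibroblasts (0.41) and endothelium (0.70).

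In B and plasma cells 13 of 88 members fell and none rose (4 uninjured and 4 anti-GFP mice; 2.43% of genes lower, 2.83% higher). Ndufa4 fell by 1.86 (SE 0.32, adjusted p = 0.000471, limma). Uninjured mice had 13.6, 20.2, 14.4 and 15.7 and anti-GFP mice 5.34, 4.70, 3.77 and 2.49, with no overlap. Ndufb6 (-1.76), Ndufs5 (-1.61), Uqcrq (-1.54), Ndufa11 (-1.43) and Atp5g1 (-1.43) followed. In the same class IgA plasma cells went from 84.1% ± 9.52 to 31.4% ± 28.3 of cells, and their part in the result was not tested. Short against long transcripts of this class lay at -0.0015 to 0.69 in uninjured mice and at -1.13 to -0.25 in anti-GFP mice.

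In myeloid cells it was the mt- genes that fell in most cases. Of 88 nuclear members 5 fell (12.6% of genes lower, 18.6% higher; median -0.15): Ndufa12 (-0.92), Ndufa5 (-0.67), Ndufc2 (-0.64), Atp5g1 (-0.51) and Ndufa4 (-0.46). Of the 13 mt- genes 11 fell, with a median of -0.74. mt-Nd2 fell by 0.98 (46.7 ± 3.6 to 24.0 ± 4.3), mt-Cytb by 0.97 and mt-Atp6 by 0.84, with no overlap of the groups for any of these. Macrophages went from 75.1% ± 3.63 to 11.9% ± 5.01 of myeloid cells, activated neutrophils from 1.02% ± 2.04 to 17.0% ± 6.91 and InjuryMono1 cells from 0.490% ± 0.98 to 23.5% ± 5.53; mt- genes made up 7.67% of UMIs in macrophages, 1.18% in neutrophils and 3.89% in InjuryMono1 cells. Within macrophages none of the 13 mt- genes passed (2 at an unadjusted p under 0.05, median 0.04), while Ndufb2 fell by 1.14 and Atp5g1 by 0.95 (1.22% of genes lower). Atp5g1 thus passed limma's test as lower in epithelial, T lymphoid, B or plasma and myeloid cells. It lost this call in 5, 11, 6 and 10 of the alternative settings of these classes, in that order. It differed by -0.25 in fibroblasts (adjusted p = 0.262, limma) and by -0.62 in endothelium (adjusted p = 0.110).

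Treatment with SZN-1326-p was set against anti-GFP at each time. The mean shares of epithelial types also differed between these arms, taken here over both times. Enterocyte precursors made up 3.08% ± 3.69 of epithelial cells in anti-GFP mice and 19.3% ± 20.3 in SZN-1326-p mice. For TA2 cells the shares were 12.3% ± 9.69 and 22.7% ± 12.5, and for AltEnterocyte cells 11.7% ± 6.11 and 3.72% ± 1.88. These ranges of 1 SD overlap. In sums over the class, a change of mix and a change per cell cannot be told apart. At 24 h 1 of 87 members rose in epithelial cells and none fell (limma; 5.89% of genes higher, 4.25% lower). This was Ndufaf4, an assembly factor that acts on early intermediates of complex I. Anti-GFP mice had 0.224, 0.224 and 0.184, and SZN-1326-p mice 0.576, 0.387 and 0.401, above every anti-GFP mouse of that time. The level rose by 1.06 (SE 0.20, adjusted p = 0.00646). It did not pass in 4 of 30 alternatives: with only the 2 groups in the fit (adjusted p = 0.0641), without the 4 libraries low in short transcripts (0.1004), as a difference from fibroblasts (0.0950) and with equal weights of 5 epithelial types (log2 0.68, adjusted p = 0.678).

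Within AltEnteroPC cells, which were present in every mouse of this comparison, Ndufaf4 was at 0.291, 0.214 and 0.252 in anti-GFP and at 0.699, 0.582 and 0.671 in SZN-1326-p mice. The groups do not overlap; the difference of 1.34 (SE 0.24) had an adjusted p of 0.0738 (limma). At 48 h the epithelial level of Ndufaf4 was 0.390, 0.277 and 0.393 in anti-GFP and 0.362, 0.472 and 0.294 in SZN-1326-p mice, with overlap. The 48 h effect minus the 24 h effect was -0.98 (SE 0.29), with an adjusted p of 0.208, so the times are not shown to differ.

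The other 7 complex I assembly factors also had differences above 0 at 24 h, with a median of 0.60 over all 8, and Ndufaf2, Ndufaf5 and Ndufaf6 had an unadjusted p under 0.05 (adjusted p = 0.108, 0.0642 and 0.158; named after their values were seen). Structural subunits lay closer to 0: the median was 0.30 in complex I, 0.17 in complex II, 0.13 in complex III, 0.05 in complex IV and 0.21 in the ATP synthase, against -0.06 over all genes. Without the 4 libraries the median over all members was 0.003. Atp5g1 differed by 0.69 (3.58 to 5.68, adjusted p = 0.0907), and Cox7a1 by -0.70 (0.182 to 0.104, adjusted p = 0.237). None of the 13 mt- genes passed, and none had an unadjusted p under 0.05.

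At 48 h no member passed limma's test (7 at an unadjusted p under 0.05, none with voom; 2.41% of genes higher, 10.1% lower). The median was 0.17, against -0.11 over all genes. Without the 4 libraries, all of them 24 h mice, 14 members rose, and the share of all genes that rose in that fit was not counted. The difference of effects between epithelial cells and fibroblasts passed for 1 member, Ndufa12, at 0.54. No member passed for the change of the effect between the times (1 at an unadjusted p under 0.05; 0.13% of genes lower, 0.00926% higher). In the 5 other classes no member passed limma's test at either time, with 2 to 22 of them at an unadjusted p under 0.05 per class and time; B or plasma cells could be tested at 48 h only. Few genes of any kind passed there: 0.009% higher in fibroblasts at 24 h, and at 48 h 0.072% higher and 0.018% lower in fibroblasts, 0.0258% higher in T lymphoid, 0.00923% higher in B or plasma and 0.0182% higher in myeloid cells. Within single cell types no member passed for SZN-1326-p either (0 to 22 at an unadjusted p under 0.05 per type and time). There too few genes of any kind passed, for example 0.0581% higher and 0.0484% lower in activated neutrophils at 24 h and 0.455% and 0.416% at 48 h.

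**Figure D5:**
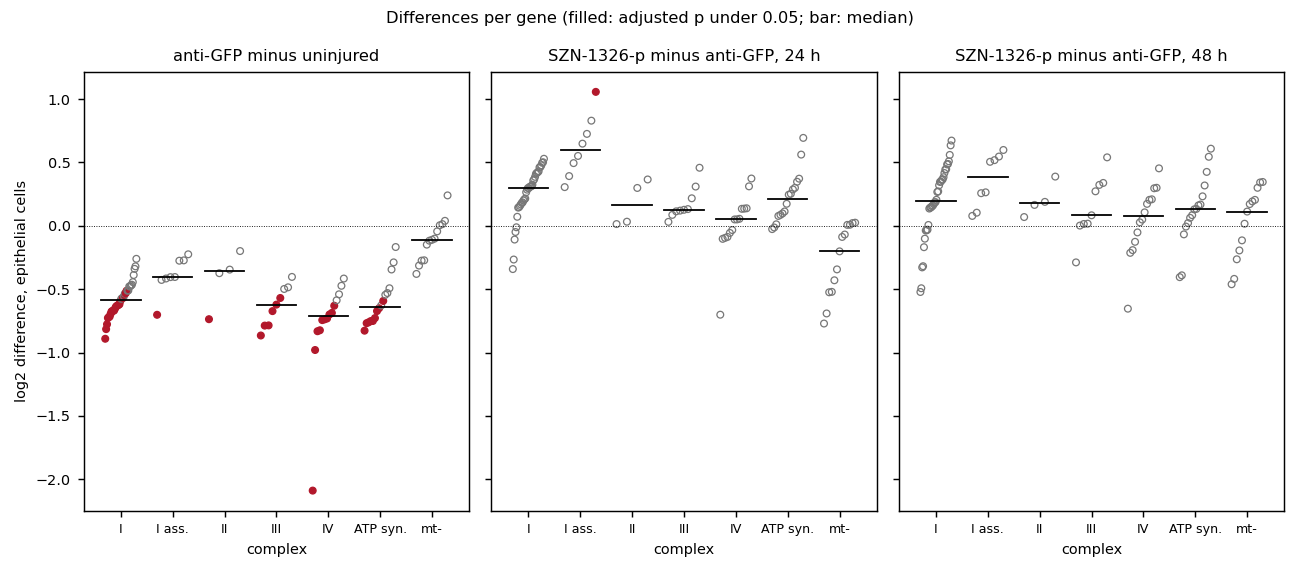
Log2 difference in epithelial cells of each member, by complex, and of the 13 mt- genes, for anti-GFP against uninjured mice and for SZN-1326-p against anti-GFP mice at 24 h and 48 h; filled points have an adjusted p under 0.05 and bars are medians. All members lie below 0 in the first panel, and Ndufaf4, an assembly factor of complex I, is the filled point of the second.

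Genes of the pathways around the chain were counted in the same epithelial fits, in which 12.5% of all genes fell and 10.8% rose in colitis. In the tricarboxylic acid cycle 5 of 13 genes fell and none rose; citrate synthase (Cs) fell by 0.95, Idh3a by 0.60 and Fh1 by 0.54. Of 15 fatty acid oxidation genes, Acadm (-0.81) and Etfa (-0.57) fell and Cpt1a, which admits long-chain fatty acids to the mitochondrion, rose by 0.54, counts near those shares. Of 8 carrier genes, the ADP/ATP carrier Slc25a5 (-0.74) and the phosphate carrier Slc25a3 (-0.56) fell. Of 29 further assembly factors 4 fell and none rose, a share near that of all genes, with Cox14 (-0.75), Sco2 (-0.71) and Surf1 (-0.60) among them. Of 77 mitochondrial ribosomal protein genes 14 fell and 2 rose (Mrps31 -1.14, Mrpl14 -0.97, Mrpl43 -0.73). Of 15 glycolysis genes 8 fell and none rose (Gapdh -0.75, Ldha -0.61, Pkm -0.61).

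Of 12 regulators of mitochondrial genes 3 rose, 1 fell and 8 did not pass in colitis, against 10.8% and 12.5% of all genes. Ppargc1a, the coactivator PGC-1α, fell by 0.99 (0.69 ± 0.03 to 0.35 ± 0.07), while its relatives Pprc1 and Ppargc1b rose by 1.01 and 0.39 and the mitochondrial RNA polymerase gene Polrmt by 0.43. In all 4 the uninjured and anti-GFP groups did not overlap, though the share of all genes without overlap was not counted. Of 23 genes of protein import, Timm17a fell by 0.44 and Tomm70a rose by 0.65.

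Under SZN-1326-p at 24 h, where 5.89% of all genes rose and 4.25% fell, 24 of 77 genes of the mitochondrial ribosome rose and none fell, with a median of 0.63; Mrpl38 rose by 1.07, Mrps18b by 1.03 and Mrps7 by 0.99. Of 23 import genes 8 rose and none fell, among them Timm8a1 (1.41), Timm50 (1.22) and Timm10 (1.21). Of the 12 regulators 1 passed: Myc, a transcription factor known for ribosome and mitochondrial biogenesis and a known target of Wnt signalling, which rose by 1.45 (0.0672 to 0.208, SE 0.28, adjusted p = 0.00649, limma). Of 29 assembly factors 2 rose, Cox18 of complex IV (0.90) and Sdhaf1 of complex II (0.84), and of 13 cycle genes 1, Idh3a (0.69). Of 15 glycolysis genes 2 fell, the glucose transporter Slc2a1 (-0.79) and hexokinase Hk1 (-0.58), and of 15 fatty acid oxidation genes 1, Cpt1a (-0.59). At 48 h, where 2.41% of all genes rose and 10.1% fell, 7 of 77 mitochondrial ribosome genes (Mrps9 0.85, Mrps28 0.84, Mrpl11 0.82) and 2 of 23 import genes rose, and 2 of 15 glycolysis genes fell, Slc2a1 (-0.71) and the phosphofructokinase Pfkp (-0.69). Whether these lists differ from the respiratory chain genes was not tested. The part of the mix of epithelial types, given above, in the results of these lists was not tested either.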

How the data were processed

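Single-cell RNA-seq libraries (10x Genomics) came from sorted epithelial and lamina propria cells of 16 mice. Per the submitters' processing notes, the authors used Cell Ranger 3.0.2 and the genome mm10. The values deposited by the authors are in the unit log2 (UMIs over the size factor of the cell, plus 1). Undoing this gave whole UMIs for 100% of 60867816 entries above 0 (tolerance 1e-06). The deposited cell annotation is in the unit other (text labels of the authors); its label SWAP was read as SZN-1326-p. Cells held 996 to 59845 UMIs (median 8849). Of 22652 distinct barcodes 64 occurred in more than 1 library. Cell filters and doublet treatment are not given in the sources used here.

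Per mouse and class or type with at least 20 cells, un-logged values were averaged, and log2 of the mean plus 0.01 was tested with limma 3.58.1 (trend, robust; R 4.3.3) for genes with a mean of at least 0.05 in at least 2 mice. The 6 groups were fitted together over all mice with enough cells (with 16 mice, 10 degrees of freedom remain), with Benjamini-Hochberg adjustment at 0.05 over all genes. The DSS contrast is the mean over both times where each of the 4 groups kept a mouse. In AltEnterocyte2 and in CD8 T and NK cells a group was empty, and the arms were compared with the times joined. The test on counts named in the plan as the choice for raw counts was not the main test, because the deposited unit is log2; limma's voom on the recovered UMI sums was an alternative. The code was tested on simulated data.

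The members and gene lists were chosen with earlier results of these data known. Genes named are up to 6 members a direction with the largest change past the test, the isoform families, the Sdh genes and 1 core subunit a complex, up to 3 mt- genes, and up to 3 genes of each other list. Alternatives varied the filter, pseudocount, denominator, scaling, samples, cell minimum, transcript length, cell weights and type mix. Transcript lengths come from GENCODE vM21 and promoters from RefSeq (GRCm38.p6). Retrotransposed copies of short respiratory genes can share reads with them. Each mouse is a replicate per the labels; groups hold 2 or 3 mice, which limits what p-values can show. Replicate numbers were not used as pairs. The results of 1 member are not reported here, though it stays in the fits and counts.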

Additional observations from a re-analysis of the deposited data

Results flagged for a closer look

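Effects of DSS differed between some classes of cells of the same mice, by a test of the difference itself. The effect was lower in epithelial cells than in fibroblasts for 47 of 87 nuclear oxidative phosphorylation genes, and lower than in myeloid cells for 25 of 87 (10.6% and 17.5% of all genes were lower). No member passed against endothelial or T lymphoid cells (medians -0.21 and 0.02, with 1.18% and 0.163% of all genes lower). ImmEntero1, ImmEntero2 and enterocytes went from 9.22%, 17.4% and 19.6% of epithelial cells in uninjured mice to 0.0807%, 0.219% and 0.124% in anti-GFP mice. The part of this change in the counts was not tested. For the mt- genes the effect was lower in epithelial cells than in fibroblasts for 1 of 13 (10 at an unadjusted p under 0.05, median -0.35), and higher than in myeloid cells for 5 of 13 (11.8% of all genes were higher), beside the change from macrophages to neutrophils and monocytes in that class. At 48 h the SZN-1326-p effect on Ndufa12 was higher in epithelial cells than in fibroblasts by 0.54 on the log2 scale, the only one of 87 members to pass there (2.07% of genes higher).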

How the results depend on the processing

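Of the named members' DSS differences in epithelial cells, 596 of 736 values under the alternatives kept direction and side of the threshold, 102 lost the call, 33 gained one and 5 changed sign: Sdha (0.0419 scaled to the UMIs outside the mt- genes, 0.0059 with voom, 0.0624 with equal weights of types), Ndufs1 (0.0067 scaled to the UMIs outside the mt- genes) and Cox7a2l (0.18 as a difference from fibroblasts). For the SZN-1326-p effect on Ndufaf4 at 48 h, 3 of 30 did: 2 without 1 mouse (anti-GFP 2 or SZN-1326-p 2 of 48 h; all such values lay between -0.0943 and 0.237) and -0.0907 with equal weights. The cause was not tested.

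The 48 members that fell with DSS in epithelial cells became 24 scaled to the UMIs outside the mt- genes, 7 with voom, 15 with equal weights of types, 73 with a term for the 4 libraries low in short transcripts, 15 at 24 h alone and 1 at 48 h alone; without 1 mouse the count ran from 1 to 71. The 2 former scalings moved the median of all genes to 0.20 and 0.26 and left the members at -0.38 and -0.33. For the alternatives, here and in the text above and below, the share of all genes called was not counted. The exceptions are the fits at each time alone and the difference from fibroblasts. Without that share the counts do not show whether members moved more than other genes. In the other classes the 30 calls became 12 without the filter, 19 with at least 50 cells and 49 with the library term (8 to 93 without 1 mouse; 93 without anti-GFP 3 at 24 h, 12 without uninjured 2 at 24 h, 10 and 8 without uninjured 1 or 2 at 48 h, 17 without anti-GFP 3 or SZN-1326-p 1 at 48 h). Within types 24 became 11 with at least 50 cells and 60 with the library term (7 to 73; 73 without anti-GFP 3 at 24 h, 13 without uninjured 2 or anti-GFP 2 at 24 h, 12 and 7 without uninjured 1 or 2 at 48 h, 14 without anti-GFP 3 at 48 h).

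For SZN-1326-p at 24 h, 1 call became 2 scaled to the UMIs outside the mt- genes, 2 with the library term, 4 with voom, 4 (2 higher, 2 lower) with the length trend removed, and 0 with only the compared groups, with equal weights, without the 4 libraries or as a difference from fibroblasts (1 to 10 without 1 mouse; 10 without anti-GFP 3 and 9 without SZN-1326-p 1, both 24 h). At 48 h 0 became 10 with only the compared groups, 11 (6 higher, 5 lower) with the length trend removed, 18 with the library term, 14 without the 4 libraries and 1 as a difference from fibroblasts (0 to 1 without 1 mouse; 1 without anti-GFP 3 at 24 h or anti-GFP 2 at 48 h). The change between times stayed at 0 (0 to 0). In other classes 0 became 1 with the library term (0 to 0), and within types 0 became 1 with at least 50 cells, 1 with the length trend removed and 1 with the library term (0 to 53 without 1 mouse: 53 without SZN-1326-p 1 and 25 without SZN-1326-p 2 at 24 h, at most 4 otherwise). Scaled to the UMIs outside the mt- genes, Cox7a1 in ImmEntero2 was 1.97 in place of 2.68.

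Same-numbered mice deviated together in part: the correlation was over 0.1 in 8 of 14 pairs in epithelial cells and 7 of 14 in fibroblasts, among them all pairs of number 1 at 24 h (0.25 to 0.53), whose mice are 3 of the 4 libraries low in short transcripts, and all pairs of number 3 (0.21 to 0.44). As other pairs did not, and no label ties the numbers to a shared source, they were not taken as pairs. With a replicate block 70 members fell with DSS in epithelial cells, 13 rose with SZN-1326-p at 24 h and 11 at 48 h, and 47 were called with DSS within types. Groups of 2 or 3 mice and few UMIs for low members (6 and 10 for Ndufaf4 in anti-GFP stem cells) limit the precision.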
